A study of Mus musculus with 12 samples.

Results

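The genes described here are 10 neuropeptide precursor genes of the mouse, Cartpt, Nts, Uts2b, Tac1, Gal, Sst, Npy, Adcyap1, Cck and Penk, read in sorted neurons of the embryonic spiral ganglion. All 10 had a row in the count table, which holds 25674 genes. Cartpt, Nts and Uts2b were chosen by the size of their measured change between these groups, so their values are given as a description with no test. The other 7 were chosen as common neuropeptides.

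The study asked what the LIM homeodomain transcription factor ISL1 does in the neurons that carry sound information from the cochlea. Control embryos were Neurod1Cre;Rosa26tdTOM, in which the transgene drives Cre recombinase and Cre switches on the red reporter tdTomato. The other group, labelled ISL1CKO, was Neurod1Cre;Isl1loxP/loxP;Rosa26tdTOM, so cells that express the Cre were also meant to lose Isl1. Both groups therefore carried the Neurod1-Cre BAC transgene and the reporter, on a mixed C57BL/6/sv129 background. Spiral ganglia of both inner ears of 1 embryo were dissociated at E14.5, in mid-gestation, and 100 tdTomato+ cells were sorted into each sample, with 6 samples per genotype drawn from 4 litters of either sex. Only cells in which Neurod1-Cre had acted were collected, so the data say nothing of other cells of the ganglion. The labels number the samples as technical replicates and the design text calls them biological. If they were not separate embryos, p-values measure only the spread between these samples.

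Neuropeptides are made as long precursor proteins that enter the secretory pathway and are packed into dense-core vesicles. There, prohormone convertases cut the precursor at pairs of basic residues, carboxypeptidase E trims the ends, and many peptides are then amidated at their C terminus, which they need to act on G protein-coupled receptors. Spiral ganglion neurons signal with glutamate, and peptides are known there mainly as co-transmitters or as markers of neuron subtypes. Neuropeptide genes are often switched on transiently in developing sensory and autonomic neurons.

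Total counts ran from 11895603 to 13857480 per library. Levels are counts per 1000000 (CPM) after scaling of library sizes, and 3 counts, taken as the floor of detection, came to 0.231 CPM on average. The floor covers counting error only, since amplified reads are not independent molecules. Transcripts of the targeted gene Isl1 averaged 1391 ± 184 CPM in ISL1CKO and 1538 ± 217 CPM in control (SD, n = 6), with edgeR's adjusted p = 0.460. Counts summed over a whole gene do not tell if the floxed stretch was removed, so each direction below is that of the libraries labelled ISL1CKO. All 8 listed neuronal markers were present in all 12 libraries, as was Pou4f1 of spiral ganglion neurons. Of the 8, Nefm, Nefl and Elavl4 were lower in ISL1CKO (edgeR adjusted p of 2.63e-04, 3.17e-04 and 0.00928), Stmn2 was higher (edgeR adjusted p = 6.08e-04), and Tubb3, Elavl3, Snap25 and Dcx did not pass. Gata3, another marker of these neurons, averaged 1474 ± 257 CPM in control and 225 ± 174 CPM in ISL1CKO (SD, n = 6; edgeR adjusted p = 0.00961).

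Some libraries stood apart. ISL1CKO 2, 3 and 5 held both Xist, at 62.9, 77.8 and 132 CPM, and Y-linked transcripts, at a mean of 61.0, 87.3 and 35.7 CPM, whereas each other library had at most 0.426 CPM of one of these kinds. Control 3 held 40.0 CPM of Prrxl1 and 20.0 CPM of Th, which mark other cranial sensory or autonomic neurons. Of 5 such markers read here, 3 had a row, and their summed level ran from 0.0732 to 61.0 CPM in control and from 1.81 to 9.26 CPM in ISL1CKO. The medians were 0.815 and 3.80 CPM. Tlx3 had more than 3 counts in 2 control and 6 ISL1CKO libraries, Th in 3 and 6, and Prrxl1 in 1 and 1. ISL1CKO 1 lay apart from its group in Sst and Chgb, given below. Below, values are also given for ISL1CKO 1, 4 and 6 alone, and without control 3 or ISL1CKO 1, where a result rests on them.

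The genomic sequence before the starts of 4 of these genes is shown for the 3 extreme genes and for Sst, with motifs known from peptide genes. Promoters of 9 of the 10 genes were found in RefSeq (GRCm38.p6), and each was read over the 250 bases before the start. The motifs searched on both strands were TGACGTCA, the full cAMP response element, its TGACG part, and TAAT, the core that homeodomain proteins commonly bind. TGACG overlaps TGACGTCA. Positions are counted back from the RefSeq start, with -1 as the base just before it. All 4 genes lie on the minus strand, and sequences are written 5′ to 3′ along the gene. Capitals mark TGACGTCA in the first pair, and TGACG or TAAT on either strand in the second pair. Cartpt and Sst are shown around the element, Nts from -250 to -69, because the bases nearer the RefSeq start lie in an exon of the GENCODE model, and Uts2b over all 250 bases. The stretches shown for Cartpt and Sst lie before the RefSeq start but within the span of the GENCODE gene models, which begin farther upstream. Motifs were searched over all 250 bases in each gene.
Cartpt, chr13:99900777-99900806: ccggcgggcatTGACGTCAaacggcagcgg
Sst, chr16:23890874-23890903: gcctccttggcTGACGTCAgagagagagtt
Nts, chr10:102490487-102490668: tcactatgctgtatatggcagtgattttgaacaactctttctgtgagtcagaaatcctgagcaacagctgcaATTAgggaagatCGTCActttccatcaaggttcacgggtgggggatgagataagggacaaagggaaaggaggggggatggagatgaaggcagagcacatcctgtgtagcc
Uts2b, chr16:27370240-27370489: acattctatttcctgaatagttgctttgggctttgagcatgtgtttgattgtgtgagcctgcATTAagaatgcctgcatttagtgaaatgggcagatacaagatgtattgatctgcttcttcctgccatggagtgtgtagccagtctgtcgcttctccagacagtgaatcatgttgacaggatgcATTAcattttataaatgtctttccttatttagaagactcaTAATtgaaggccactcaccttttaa

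The full element began at -112 in Cartpt and at -48 in Sst, and in none of the other 7 genes with a promoter. It was present in 1.55% of all 32851 RefSeq promoters read over the same length. TGACG was present in 6 of the 9 genes, against 17.8% of all promoters. TAAT was present in 5 of the 9, against 54.9% of all promoters. Uts2b had 3 matches to TAAT, at -188, -65 and -25, and none to TGACG. A match is a run of letters and does not show that a protein binds there, and a missing match says only that the letters are not in this window.

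Uts2b made up most of the peptide precursor counts in control and little of them in ISL1CKO. Uts2b (ENSMUSG00000056423, chr16:27353322-27370239 on GRCm38, minus strand) encodes the precursor of urotensin-2B, a small cyclic peptide that acts on the urotensin receptor. In control its lowest, median and highest values were 152, 185 and 327 CPM. In ISL1CKO they were 0, 3.17 and 17.3 CPM. The groups did not overlap: the highest ISL1CKO library, number 1, lay far under the lowest control library, and ISL1CKO 5 and 6 had 0 and 1 counts. Uts2b averaged 216 ± 74.6 and 5.26 ± 6.58 CPM in control and ISL1CKO (SD, n = 6), so Uts2b was 41.1-fold lower in ISL1CKO (log2 fold change -5.36, standard error 0.82). With ISL1CKO 1, 4 and 6 alone against the controls the log2 fold change was -5.03, and without control 3 and ISL1CKO 1 it was -6.14. Without ISL1CKO 1 the other 5 averaged 2.85 ± 3.22 CPM (SD).

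Cartpt was the reverse case, close to the floor in control and present in every ISL1CKO library. Cartpt (ENSMUSG00000021647, chr13:99898489-99901091, minus strand) encodes the precursor of CART peptides, known from circuits of feeding, reward and stress. In control the lowest, median and highest values were 0, 0.194 and 0.584 CPM, and only 2 libraries had more than 3 counts. In ISL1CKO they were 21.9, 48.3 and 164 CPM, so the groups did not overlap. ISL1CKO 4 was highest and ISL1CKO 2 lowest, a spread of several-fold within the group. Cartpt averaged 67.1 ± 54.5 and 0.253 ± 0.230 CPM in ISL1CKO and control (SD, n = 6), and the fitted log2 fold change was 8.03 (standard error 0.70). It was 8.16 with ISL1CKO 1, 4 and 6 alone and 8.59 without control 3 and ISL1CKO 1.

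Nts was likewise near the floor in control and present in every ISL1CKO library, but 1 library set its mean. Nts (ENSMUSG00000019890, chr10:102481756-102490486, minus strand) encodes the precursor of neurotensin and neuromedin N. In control the lowest, median and highest values were 0, 0.074 and 0.878 CPM, and only control 6, with 12 counts, exceeded the floor. In ISL1CKO they were 8.24, 16.7 and 224 CPM. ISL1CKO 3 held 2971 counts of Nts, whereas the other 5 ran from 8.24 to 18.8 CPM. All 6 stood above all controls. Nts averaged 49.5 ± 85.4 and 0.211 ± 0.338 CPM in ISL1CKO and control (SD, n = 6), and the fitted log2 fold change was 7.77. Without ISL1CKO 3 the mean was 14.7 ± 4.19 CPM (SD, n = 5) and the log2 fold change 6.03. Without control 6 the latter was 9.14, and with ISL1CKO 1, 4 and 6 alone 6.19. ISL1CKO 3 is one of the libraries with transcripts of both sexes. It also held the most endothelial marker transcripts (4 of 5 listed had a row), with a summed level of 29.7 CPM against 0.219 to 5.66 CPM in the other ISL1CKO libraries and 0.220 to 1.19 CPM in control. Of this, 27.7 CPM came from Kdr, while Tek was at 0 and Cldn5 under the floor. The part of mixed embryos or such cells in its Nts level was not tested. In sorted pools of cells, fewer cells of a type and less RNA per cell cannot be told apart.

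**Figure D1:**
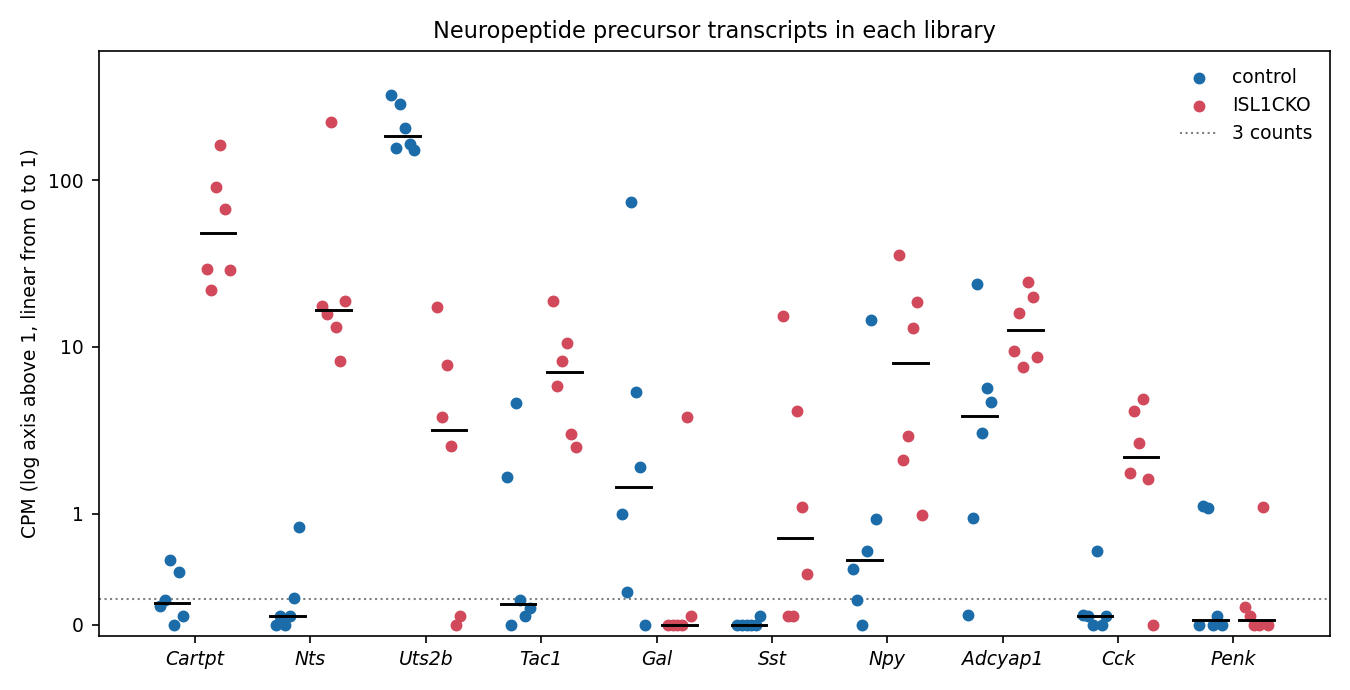
Level of each precursor gene in CPM, with 1 point per library, control in blue and ISL1CKO in red. The axis is logarithmic above 1 CPM and linear from 0 to 1, black bars are medians of 6 libraries, and the dotted line is 3 counts (0.231 CPM on average). Cartpt and Nts sit above all controls in ISL1CKO and Uts2b sits below them, while most of the others overlap and hold 1 or more libraries far from the rest.

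Of the 7 common neuropeptide genes, 3 passed the filter on low counts (Tac1, Npy and Adcyap1) and 0 passed an adjusted p of 0.05 in edgeR's quasi-likelihood test. Of all 14813 tested genes, 10.2% passed it, 5.01% higher and 5.19% lower in ISL1CKO. Gal, Sst, Cck and Penk did not pass the filter over the 12 libraries. In a fit without the filter, the 2 of the 7 past the threshold were Sst and Cck.

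Tac1 (ENSMUSG00000061762, chr6:7554879-7565834, plus strand) encodes the precursor of substance P and neurokinin A. In control its lowest, median and highest values were 0, 0.184 and 4.59 CPM, and in ISL1CKO they were 2.51, 7.05 and 18.9 CPM. All ISL1CKO libraries lay above 5 of the controls, and control 3 alone overlapped them. The fitted log2 fold change, 2.88 (standard error 0.96), missed the threshold in edgeR's test (adjusted p = 0.0759). Without control 3 it was 4.27 (edgeR adjusted p = 0.00998), without control 3 and ISL1CKO 1 it was 3.83 (edgeR adjusted p = 0.0211), and with ISL1CKO 1, 4 and 6 alone 3.26 (edgeR adjusted p = 0.173). DESeq2 and limma-voom gave adjusted p of 0.00999 and 0.0264. Over all alternatives the adjusted p ran from 0.00998 to 0.173. The Tac1 call thus depended on the test and on control 3. Tac1 passed the filter through the ISL1CKO libraries, where it is higher, so its calls are not given as support.

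Npy (ENSMUSG00000029819, chr6:49822710-49829507, plus strand) encodes neuropeptide Y, which is abundant in sympathetic neurons. In control the lowest, median and highest values were 0, 0.583 and 14.6 CPM, and in ISL1CKO 0.991, 8.0 and 35.6 CPM. The groups overlapped only through control 5, which held 184 counts while no other control held more than 13. The fitted log2 fold change of 2.11 (standard error 1.15) missed the threshold (edgeR adjusted p = 0.293). Without control 5 it was 4.66 (edgeR adjusted p = 0.0102), so that library decided the call. It was 1.15 without control 3 and ISL1CKO 1 (edgeR adjusted p = 0.619) and 2.55 with ISL1CKO 1, 4 and 6 alone (edgeR adjusted p = 0.375). Npy passed the filter through the ISL1CKO libraries, where it is higher, so its call without control 5 is not given as support.

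Adcyap1 (ENSMUSG00000024256, chr17:93199017-93206537, plus strand) encodes PACAP, a peptide that raises cAMP in its target cells and is known for effects on neuron survival. In control the lowest, median and highest values were 0.0831, 3.86 and 23.9 CPM, and in ISL1CKO 7.60, 12.7 and 24.4 CPM. Control 3 came close to the highest ISL1CKO library and the other 5 controls lay below all of it. The fitted log2 fold change of 1.17 (standard error 0.76) missed the threshold (edgeR adjusted p = 0.390). It was 2.30 without control 3 (edgeR adjusted p = 0.0462) and 2.40 without control 3 and ISL1CKO 1 (edgeR adjusted p = 0.0518). Limma-voom gave an adjusted p of 0.0313 over all libraries.

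Cck (ENSMUSG00000032532, chr9:121489824-121495694, minus strand) encodes cholecystokinin. Its level was low in both groups, at 0, 0.0736 and 0.667 CPM as the lowest, median and highest value in control and 0, 2.19 and 4.85 CPM in ISL1CKO. More than 3 counts were present in 5 ISL1CKO libraries and in 1 control library, number 4 with 9 counts, while ISL1CKO 6 had 0. Without the filter it was higher in ISL1CKO by 3.95 on the log2 scale (edgeR adjusted p = 0.0449). In fits with the filter it entered only where ISL1CKO 6 or a control was left out. It then passed the filter through the ISL1CKO libraries, where it is higher, so those fits are not given as support.

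Sst (ENSMUSG00000004366, chr16:23889573-23890958, minus strand) encodes somatostatin, an inhibitory peptide and a marker of interneurons in the brain. A single count was found among the 6 control libraries. In ISL1CKO the lowest, median and highest values were 0.0753, 0.776 and 15.4 CPM, with 195 counts in number 1, 55 in number 4, 15 in number 5, 6 in number 6 and 1 in each of the others. ISL1CKO 2 and 3 thus held no more counts than control 6. The mean of 3.54 ± 6.02 CPM (SD, n = 6) was at least 15.4-fold above the floor, and that of the 5 libraries other than ISL1CKO 1, 1.16 ± 1.70 CPM (SD), was 5.04 times it. In the fit without the filter edgeR's adjusted p was 0.00695. ISL1CKO 1 also had the highest Npy, Tac1 and Uts2b of its group.

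Gal (ENSMUSG00000024907, chr19:3409915-3414544, minus strand) encodes galanin, a peptide known from sensory and autonomic neurons after injury and in development. In control the lowest, median and highest values were 0, 1.45 and 73.7 CPM, and in ISL1CKO 0, 0 and 3.79 CPM. Control 3 held 883 counts, while the other 5 controls held 0 to 72. In ISL1CKO only number 5 exceeded the floor, with 52 counts. Without the filter the fitted log2 difference was -4.35 (edgeR adjusted p = 0.198), which missed the threshold, and with ISL1CKO 1, 4 and 6 alone edgeR's adjusted p was 0.133. The control mean was 13.7 ± 29.4 CPM (SD, n = 6) and 1.71 ± 2.16 CPM (SD, n = 5) without control 3. Control 3 was the library with Prrxl1 and Th, and it had the highest Tac1 and Adcyap1 of the controls. Its summed level of the markers of other cranial ganglia was 61.0 CPM against 0.0732 to 2.74 CPM in the other controls. The part of such neurons in its Gal level was not tested.

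Penk (ENSMUSG00000045573, chr4:4133531-4138819, minus strand) encodes the precursor of the enkephalins. It stayed near the floor, with at most 1.11 CPM in control and 1.09 CPM in ISL1CKO, and more than 3 counts in 2 and 1 libraries. Without the filter the fitted log2 difference was -0.73 (edgeR adjusted p = 0.848). Penk overlaps A830012C17Rik on the opposite strand, and the use of strand in counting was not stated, so these few counts are uncertain. No other of the 10 genes overlapped another gene in the annotation.

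**Figure D2:**
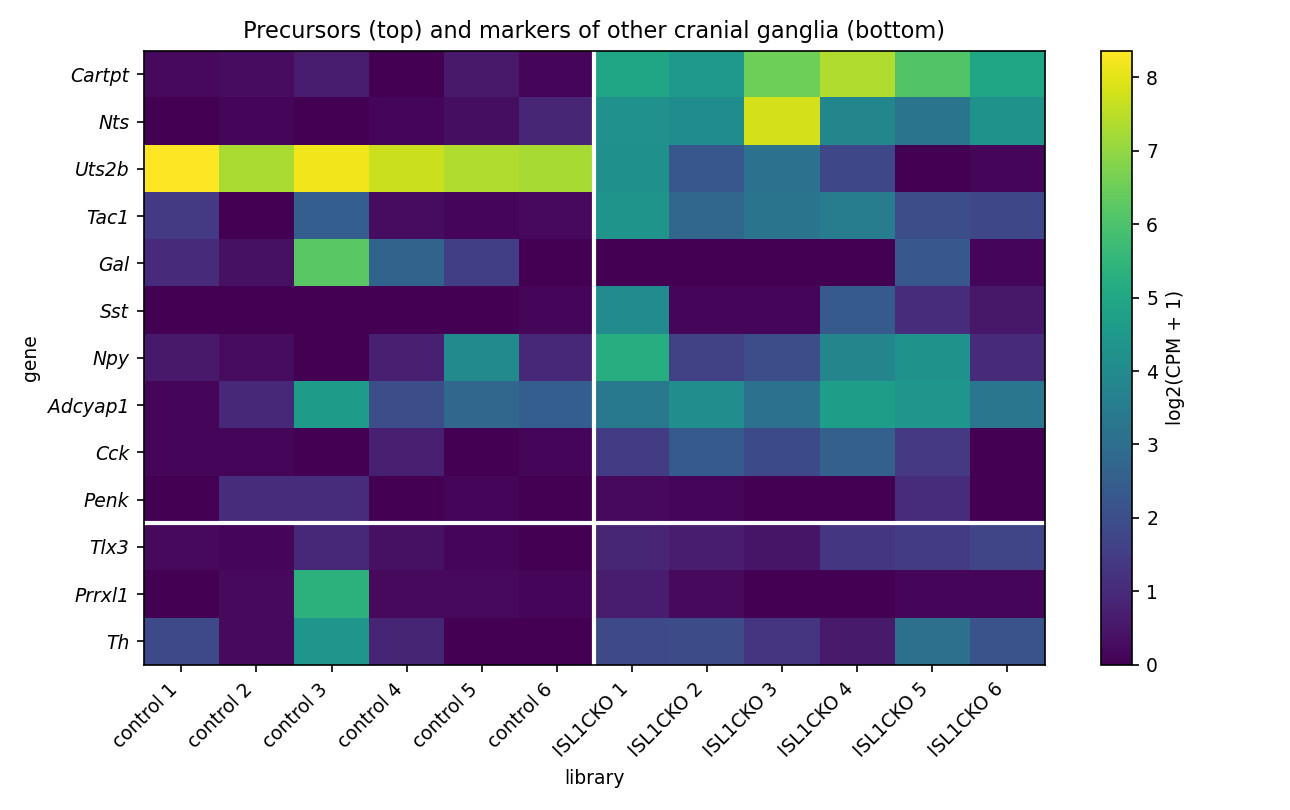
Level of the 10 precursors (above the white line) and of 3 markers of other cranial sensory or autonomic neurons (below it) in each library, in log2(CPM + 1). Control 3 stands out for Gal and Adcyap1 together with Prrxl1 and Th, and ISL1CKO 1 for Sst and Npy.

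Measured per kilobase of exon, so that genes can be compared, Uts2b stood first among the 10 in control at 258 ± 89.3 CPM per kb (SD, n = 6), and its range lay wholly above that of Gal, which came second at 17.4 ± 37.4. From Gal downward, each gene's range overlapped that of the next, in the order Npy, Adcyap1, Tac1, Penk, Cartpt, Nts, Cck and Sst. In ISL1CKO Cartpt stood first at 52.6 ± 42.7 CPM per kb, followed by Nts at 39.7 ± 68.4 and Npy at 21.6 ± 23.8 (SD, n = 6). Uts2b came next at 6.31 ± 7.88. Both second places rested on 1 library: without control 3 Gal averaged 2.16 CPM per kb in control, and without ISL1CKO 3 Nts averaged 11.8 CPM per kb in ISL1CKO, each then below Npy. Every pair of neighbours in the ISL1CKO order overlapped in range.

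The sum over the 10 genes showed how the libraries were made up. In control Uts2b supplied 73.4% to 98.9% of the summed CPM, and its lowest share was in control 3. In ISL1CKO the leading gene differed between libraries. It was Cartpt in numbers 2, 4, 5 and 6, with 31.4%, 69.2%, 54.0% and 47.9% of the sum, Nts in number 3 with 65.0%, and Npy in number 1 with 24.5%. The sum itself ran from 158 to 390 CPM in control and from 60.7 to 344 CPM in ISL1CKO, and the ranges overlapped. Between 4 and 6 of the 10 genes had more than 3 counts in a control library, and between 6 and 9 in an ISL1CKO library.

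**Figure D3:**
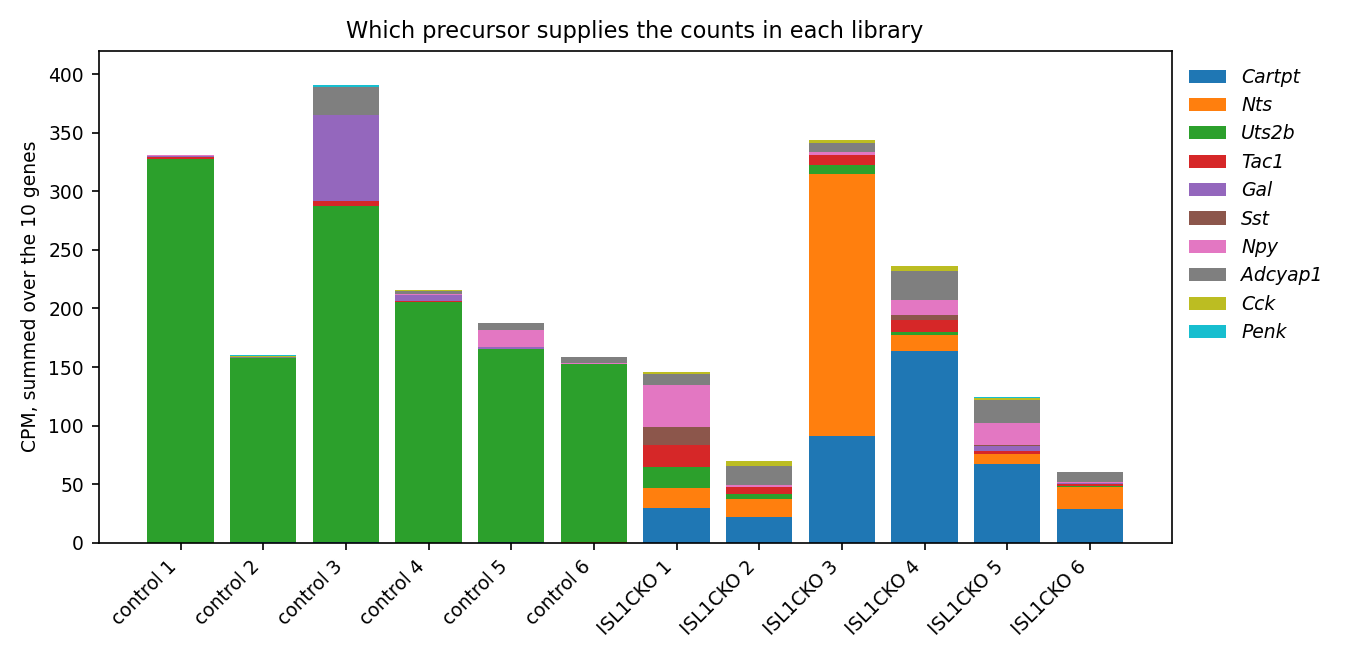
CPM summed over the 10 precursor genes in each library, stacked by gene. The 6 control bars are mostly Uts2b, at 73.4% or more, and the ISL1CKO bars are made up of several genes, led by Cartpt in 4 of 6, by Nts in number 3 and by Npy in number 1.

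The genes whose level followed each of the 3 extreme precursors most closely over the 12 libraries were found by Pearson's r of log2(CPM + 1), as a description, since the difference between the groups enters every such r. For Cartpt they were A830018L16Rik, Brinp3 and Atat1, with r of 0.985, 0.979 and 0.976. For Nts they were 2210408I21Rik, St8sia4 and Map9, with r of 0.952, 0.946 and 0.940. For Uts2b they were Mblac2, Ttll7 and Nefm, with r of 0.984, 0.980 and 0.977. The genes were chosen by r over all 12 libraries, so r within a group is not independent of that choice. Within the 6 ISL1CKO libraries these r ran from 0.774 to 0.934. Within the 6 controls they ran from -0.729 to 0.819 and were below 0 for Atat1 with Cartpt (-0.190) and for St8sia4 and Map9 with Nts (-0.729 and -0.583). Nefm, a neurofilament subunit, averaged 3337 CPM in control and 881 CPM in ISL1CKO, and like Uts2b it was highest in ISL1CKO 1 within its group.

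Other neuropeptide precursors were mostly too low to test. Of 58 listed, 32 had a row, 10 passed the filter, and 1 passed the threshold in edgeR's test, or 1 of 10 against 10.2% of all tested genes. Their median log2 fold change was 0.23, and that of all tested genes was 0.0045. The gene past the threshold was Pnoc (ENSMUSG00000045731), which encodes the precursor of nociceptin. It fell from 6.05 ± 3.99 to 0.487 ± 0.728 CPM (SD, n = 6), on the log2 scale by -3.60 (standard error 0.96, edgeR adjusted p = 0.0259), although the groups overlapped through control 2 and ISL1CKO 4. The call was lost without control 1, control 6, ISL1CKO 5 or ISL1CKO 6 (edgeR adjusted p of 0.0538, 0.0645, 0.0563 and 0.0551) and with ISL1CKO 1, 4 and 6 alone (edgeR adjusted p = 0.153). Pnoc passed the filter through the control libraries, where it is higher, so its call, counted above, is not given as support. Calcb, named after its values were seen, encodes a calcitonin gene-related peptide and did not pass the filter. It had 0 counts in all 6 ISL1CKO libraries and more than 3 counts in 5 controls, at 1.43 ± 1.39 CPM (SD, n = 6), so it was at least 6.21-fold lower against the floor. Nucb2, the most abundant of the list per kilobase, averaged 22.3 ± 3.71 CPM in control and 26.7 ± 9.5 CPM in ISL1CKO (SD, n = 6).

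Granins are acidic proteins stored with peptides in dense-core vesicles. All 6 listed were tested and 2 passed, both higher in ISL1CKO, or 33.3% against 10.2% of all tested genes, with a list median of -0.026 on the log2 scale. Chga, which encodes chromogranin A, rose from 90.9 ± 17.2 to 168 ± 46.6 CPM (SD, n = 6; log2 fold change 0.89, edgeR adjusted p = 0.00403). Control 3, at 118 CPM, lay above ISL1CKO 3, at 112 CPM, and the groups otherwise did not overlap. Scg2, which encodes secretogranin II, rose from 1.86 ± 2.43 to 11.4 ± 6.99 CPM (SD, n = 6; log2 fold change 2.61, edgeR adjusted p = 0.0367). Its highest control was number 3. Scg2 passed the filter through the ISL1CKO libraries, where it is higher, so its call, counted above, is not given as support. Its call was lost with ISL1CKO 1, 4 and 6 alone (edgeR adjusted p = 0.195) and in 7 of the 12 fits that left out 1 library (edgeR adjusted p up to 0.0824). Chgb, the most abundant granin per kilobase, averaged 447 ± 127 and 281 ± 164 CPM (SD, n = 6) and did not pass (edgeR adjusted p = 0.173). ISL1CKO 1 held 615 CPM of Chgb while the other 5 lay between 191 and 230 CPM, below all 6 controls. With ISL1CKO 1 left out, the fitted log2 difference was -1.06 (edgeR adjusted p = 0.00148). Vgf, named after its values were seen, encodes a precursor that is cut into several peptides and averaged 8.90 ± 3.33 and 2.56 ± 2.43 CPM (SD, n = 6; edgeR adjusted p = 0.0962). It was past the threshold, lower in ISL1CKO, with ISL1CKO 1, 4 and 6 alone (edgeR adjusted p = 0.0130), without ISL1CKO 2 (edgeR adjusted p = 0.0403), with DESeq2 (adjusted p = 0.0255) and with limma-voom (adjusted p = 0.0214).

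Enzymes that turn precursors into peptides moved both ways. Of 10 tested processing genes 4 passed, 2 lower and 2 higher, or 40.0% against 10.2% of all tested genes, with a list median of -0.13. Pcsk2, which encodes the neuronal convertase PC2, fell from 232 ± 17.6 to 119 ± 27.6 CPM (SD, n = 6; log2 fold change -0.97, edgeR adjusted p = 1.45e-04). Pam, which encodes the enzyme that amidates peptides, fell from 55.7 ± 7.83 to 26.3 ± 6.20 CPM (SD, n = 6; log2 fold change -1.08, edgeR adjusted p = 7.27e-04). Cpe, which encodes carboxypeptidase E, rose from 521 ± 35.9 to 685 ± 49.4 CPM (SD, n = 6; log2 fold change 0.39, edgeR adjusted p = 0.00129). For these 3 genes the groups did not overlap, as was the case for 6.78% of all tested genes, and each call held with ISL1CKO 1, 4 and 6 alone (edgeR adjusted p of 0.00591, 0.00630 and 0.0101).

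Qpct, which encodes the enzyme that forms N-terminal pyroglutamate, as in neurotensin, rose from 7.09 ± 3.20 to 19.7 ± 8.31 CPM (SD, n = 6; log2 fold change 1.48, edgeR adjusted p = 0.0130). The call was lost with ISL1CKO 1, 4 and 6 alone (edgeR adjusted p = 0.127). The convertase gene Pcsk1, named after its values were seen, averaged only 0.165 ± 0.106 and 0.421 ± 0.179 CPM (SD, n = 6) and did not pass the filter. Scg5, which encodes a chaperone of PC2 and was the most abundant of the list per kilobase, averaged 629 ± 96.8 and 625 ± 91.5 CPM (SD, n = 6; edgeR adjusted p = 0.972). Pcsk2 and Pam overlap genes on the opposite strand, and Pam also on its own strand, so their counts are uncertain to that extent.

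**Figure D4:**
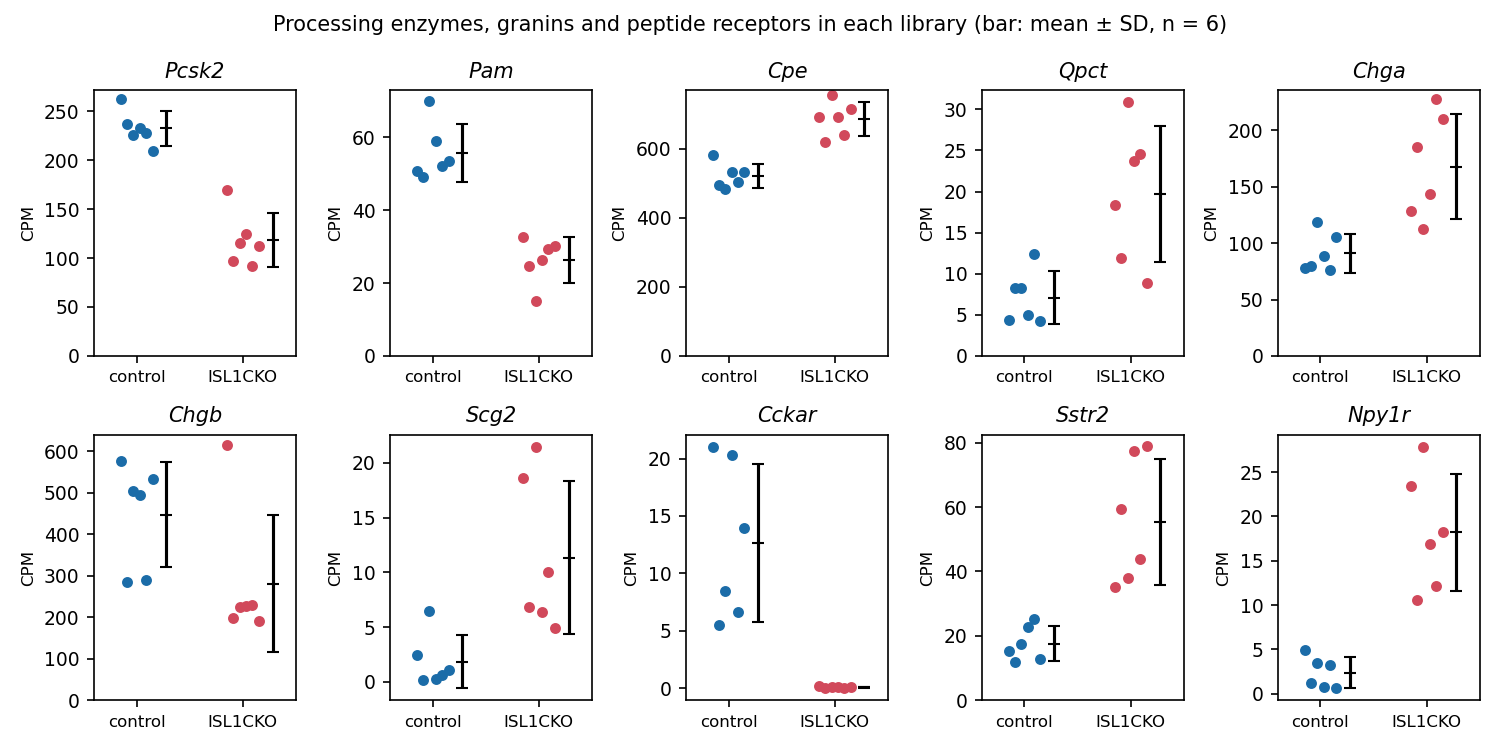
Levels in CPM of 4 processing enzymes, 3 granins and 3 peptide receptors, with 1 point per library and the mean ± SD of 6 libraries beside each group. The groups are apart for Pcsk2, Pam, Cpe, Cckar, Sstr2 and Npy1r, and ISL1CKO 1 stands alone at 615 CPM of Chgb.

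Of 15 tested genes for the formation and release of dense-core vesicles, 4 passed, 2 lower and 2 higher, or 26.7% against 10.2% of all tested genes, with a list median of 0.076 on the log2 scale. Syt4, which encodes a synaptotagmin of dense-core vesicles, rose from 48.3 ± 10.4 to 134 ± 76.3 CPM (SD, n = 6; log2 fold change 1.47, edgeR adjusted p = 0.00439). Sytl4, which encodes granuphilin, was at or under 3 counts in every control library and averaged 79.7 ± 51.1 CPM in ISL1CKO (SD, n = 6; edgeR adjusted p = 5.36e-08). It passed the filter through the ISL1CKO libraries, where it is higher, so its call, counted above, is not given as support. Rab2a fell from 163 ± 66.4 to 87.4 ± 10.5 CPM (SD, n = 6; log2 fold change -0.90, edgeR adjusted p = 0.00684), and control 3 alone held 298 CPM where the other controls held 125 to 145 CPM. Ica1 fell from 83.6 ± 12.9 to 54.6 ± 17.8 CPM (SD, n = 6; log2 fold change -0.61, edgeR adjusted p = 0.0483). The calls of Rab2a and Ica1 were lost with ISL1CKO 1, 4 and 6 alone (edgeR adjusted p of 0.101 and 0.227), and that of Ica1 in 9 of the 12 fits that left out 1 library. Rab3a, the most abundant of the list per kilobase, averaged 324 ± 42.2 and 293 ± 35.7 CPM (SD, n = 6). Syt4 overlaps Gm26658 on the opposite strand.

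Receptors for most of these peptides were also measured in the sorted cells. The urotensin receptor gene Uts2r was listed but had no row, and receptors for CART peptides were not listed. Of 28 listed, 20 had a row, 10 were tested and 3 passed, 1 lower and 2 higher, or 3 of 10 against 10.2% of all tested genes, with a list median of 0.16. Cckar, the cholecystokinin A receptor gene, was at 5.47 CPM or more in every control, with a mean of 12.6 ± 6.86 CPM (SD, n = 6). In ISL1CKO it reached 2 counts at most, which puts it at least 54.7-fold lower against the floor (edgeR adjusted p = 2.23e-06). Cckar passed the filter through the control libraries, where it is higher, so its call, counted above, is not given as support. Npy1r, which encodes a neuropeptide Y receptor, rose from 2.39 ± 1.74 to 18.2 ± 6.59 CPM (SD, n = 6; log2 fold change 2.93, edgeR adjusted p = 9.55e-04). Sstr2, a somatostatin receptor gene and the most abundant of the list per kilobase, rose from 17.6 ± 5.36 to 55.5 ± 19.5 CPM (SD, n = 6; log2 fold change 1.66, edgeR adjusted p = 5.24e-04). The groups did not overlap for Npy1r and Sstr2, against 6.78% of all tested genes without overlap. Both calls held with ISL1CKO 1, 4 and 6 alone (edgeR adjusted p of 0.0102 and 0.00370). Sstr2 overlaps Slc39a11 on the opposite strand.

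The neurotensin receptor gene Ntsr1, named after its values were seen, averaged 2.94 ± 2.63 CPM in control and 20.9 ± 13.0 CPM in ISL1CKO (SD, n = 6). Its log2 fold change of 2.82 missed the threshold (edgeR adjusted p = 0.0556). ISL1CKO 3, the library with the most Nts, had 0.376 CPM of Ntsr1, the lowest of its group, and without it the adjusted p in edgeR was 0.0138. DESeq2 gave an adjusted p of 0.0302. Among 8 tested peptidases that cleave neuropeptides, 1 passed, or 12.5%, near the 10.2% of all tested genes. Ece1, which encodes endothelin-converting enzyme, fell from 40.8 ± 8.03 to 22.9 ± 7.73 CPM (SD, n = 6; log2 fold change -0.83, edgeR adjusted p = 0.0353). That call was lost with ISL1CKO 1, 4 and 6 alone (edgeR adjusted p = 0.166) and in 6 of the 12 fits that left out 1 library. Prep, the most abundant of the list per kilobase, averaged 197 ± 38.7 and 173 ± 20.0 CPM (SD, n = 6).

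**Figure D5:**
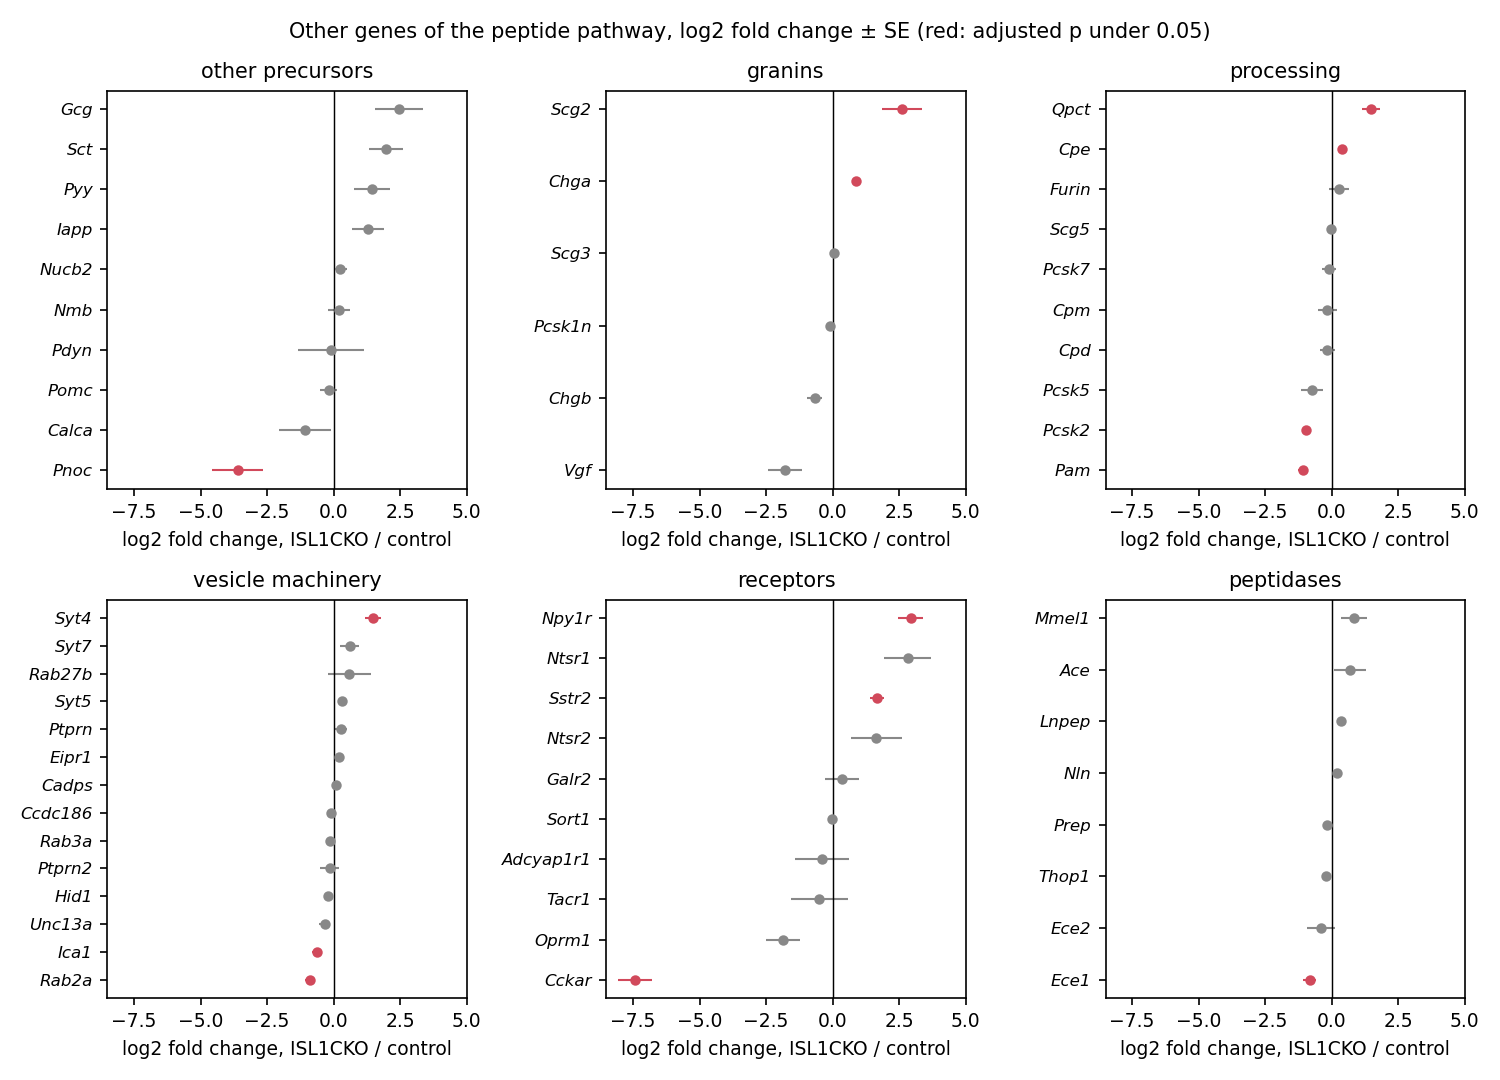
Log2 fold change of ISL1CKO over control with its standard error for the tested genes of 6 lists, in red where edgeR's adjusted p was under 0.05. Sytl4 lies beyond the axis and is left out. Calls lie on both sides of 0 among processing, vesicle and receptor genes, and Cckar is farthest to the left.

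RNA of other cells was read from marker lists in the same libraries. Summed macrophage markers (10 listed) ran from 1.92 to 377 CPM in control and from 1.46 to 693 CPM in ISL1CKO, and summed Schwann cell markers (8 listed) from 9.47 to 158 CPM and from 16.4 to 225 CPM. Both ranges overlapped between the groups. The highest macrophage level was in ISL1CKO 4, which also had the highest Cartpt and Adcyap1. In ISL1CKO 2 and 5 the macrophage sum was 1.63 and 1.46 CPM and Cartpt was at 21.9 and 67.4 CPM. Mesenchyme markers (9 listed) summed to 38.5 to 84.5 CPM and 62.7 to 113 CPM, mostly from Pou3f4 and Tbx18, and hair cell markers (6 with a row) to 253 to 538 CPM and 293 to 580 CPM. The hair cell sum came mostly from Myo6, which averaged 407 CPM in control and 410 CPM in ISL1CKO (edgeR adjusted p = 0.986). Ccer2 fell from 36.7 to 3.83 CPM (edgeR adjusted p = 1.54e-04). Myo7a and Otof did not pass the threshold (edgeR adjusted p of 0.602 and 0.818), and Pou4f3 and Gfi1 did not pass the filter. Of the mesenchyme markers, Tbx18 rose from 1.09 to 39.5 CPM (edgeR adjusted p = 3.49e-04) and Col3a1 from 2.66 to 14.1 CPM (edgeR adjusted p = 0.00241). Tbx18 passed the filter through the ISL1CKO libraries, where it is higher, so its call is not given as support. Col1a2 averaged 1.30 and 4.67 CPM (edgeR adjusted p = 0.0602), Pou3f4 52.9 and 27.4 CPM (edgeR adjusted p = 0.143), and the other 5 did not pass the filter. Of these, Twist1 averaged 1.13 CPM in control and 0.0129 CPM in ISL1CKO, with more than 3 counts in 5 and 0 libraries. Twist2 and Lum were also lower in ISL1CKO on average, and Col1a1 and Pdgfra higher. Beyond these values, the part of such cells in the precursor levels was not tested.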

How the data were processed

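The authors deposited whole-number counts per Ensembl gene, not normalized, for 12 libraries of RNA from sorted cells. Per the submitters' processing notes, cutadapt 1.18, Bowtie 1.2.2, STAR 2.7.0c, featureCounts and the build GRCm38.p6 were used; their settings, the annotation and the use of strand are not given in the sources used here. The smallest gene total was 10 counts. Symbols were matched for 25620 identifiers, and positions and exon lengths come from GENCODE M21 (GRCm38).

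Genes were kept by filterByExpr (minimum count 10), scaled with TMM and tested with edgeR 4.0.16 (R 4.3.3), robust quasi-likelihood F-test, no covariate, Benjamini-Hochberg adjustment over 14813 genes, threshold 0.05. Standard errors are the absolute log2 fold change over the square root of F. The code was tested on simulated data first. Alternatives were scaling by DESeq2 size factors or by the upper quartile, no filter, the DESeq2 1.42.0 Wald test, limma-voom (limma 3.58.1) with sample weights, a replicate block, ISL1CKO 1, 4 and 6 alone, and each library left out. No 2 libraries agreed within sampling noise (chi-square per degree of freedom at least 20.9 over 66 pairs).

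The members, gene lists and tests were chosen with earlier results of these data known. Named from each wider list were all genes past the threshold if at most 6, otherwise 3 per direction, and the most abundant gene per kilobase. Likeness took 3 genes per extreme member. One marker of other cranial neurons is not reported here and was left out of its list's sums.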

Additional observations from a re-analysis of the deposited data

Results flagged for a closer look

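Single libraries lay far from the other 5 of their group in 15 of 57 group values tested with Dixon's criterion. About 1 in 20 would be by chance if the values had a normal spread. The criterion was applied to CPM, which need not have one, above all near the floor. Each flagged value was the highest of its group. The 15 are therefore not read as an excess over chance. The 10 precursor genes gave 10 of them.

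Among ISL1CKO libraries, Nts was at 224 CPM in number 3 (others 8.24 to 18.8), Sst at 15.4 CPM in number 1 (others 0.0753 to 4.11), Gal at 3.79 CPM in number 5 (others at most 0.0762) and Penk at 1.09 CPM in number 5 (others at most 0.158). Among controls, Gal was at 73.7 CPM in number 3 (others at most 5.33), Adcyap1 at 23.9 CPM in number 3 (others 0.0831 to 5.71) and Tac1 at 4.59 CPM in number 3 (others at most 1.66). Npy was at 14.6 CPM in control 5 (others at most 0.952), Nts at 0.878 CPM in control 6 (others at most 0.238) and Cck at 0.667 CPM in control 4 (others at most 0.0831).

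Outside the precursors, Scg2 was at 6.51 CPM and Rab2a at 298 CPM in control 3, Chgb at 615 CPM in ISL1CKO 1, Rab3a at 361 CPM in ISL1CKO 3 and Sytl4 at 180 CPM in ISL1CKO 5. Control 3 accounts for 5 of the 15 values.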

How the results depend on the processing

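The direction of each of the 21 genes followed across 20 alternatives was the same in all of them. These were the 3 extreme members, the 3 tested common members and the genes of the wider lists past the threshold. The alternatives reuse the same libraries, so an unchanged direction is not independent support. The number of common members past the threshold, 0 of 3, became 1 with the DESeq2 Wald test, 2 with limma-voom, 2 of 7 with no filter and 1 with the replicate block. It was 1 with control 3 and ISL1CKO 1 left out (chosen after seeing the data), and 0 to 3 with 1 library left out. The 3, without control 3, were Tac1, Adcyap1 and Cck. Cck was the only call without ISL1CKO 6 and without control 4. Cck, Tac1 and Npy passed the filter in such fits through the ISL1CKO libraries, where they are higher, so their calls are not given as support. Other precursors, 1 past the threshold, became 3 with DESeq2, 2 with limma-voom, 2 with no filter, 2 without control 3 and ISL1CKO 1, and 0 to 2 with 1 library left out. With ISL1CKO 1, 4 and 6 alone, 767 genes passed in place of 1511, vesicle genes 2 in place of 4 and peptidases 0 in place of 1; there fewer samples were tested. Receptors became 5 in place of 3 with DESeq2, and peptidases 2 without control 3 and ISL1CKO 1. With 1 library left out, all genes ranged from 1178 to 1517, granins from 1 to 3, processing genes stayed at 4, vesicle genes ranged from 3 to 5, receptors from 3 to 4 and peptidases from 0 to 2. Other causes were not tested. Replicate numbers did not pair the samples: same-numbered libraries correlated at -0.056 to 0.152 in their deviations from the group means, and with the replicate block 1450 genes passed, Tac1 (adjusted p = 0.0148), Chgb (0.0369) and Ntsr1 (0.0206) among them. Gal, Sst, Cck, Penk and most other precursors lay near or under 3 counts in many libraries, and the part of depth in this was not tested.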
